A study of Mus musculus with 6 samples.

Results

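The comparison described here set a MyoD-silenced clone of the mouse myoblast line C2C12 against C2C12 control cells after 6 days of myogenic differentiation. It rested on the 2 dye-swapped arrays whose titles give that day, of 6 arrays in the series; the others hold the same comparison at 1 and 3 days. The clone, MyoD(-)cl.A8, descends from C2C12 cells of C3H mouse muscle that received the MyoD transcript in antisense orientation in the vector pcDNA 3.0, followed by selection with G-418 and tests of the resistant clones for silencing. The control was C2C12 without a stated vector, and both were differentiated in medium with horse serum in place of the fetal bovine serum used for growth. The clone was 1 clone, so effects of the silencing and of the clone cannot be told apart. Total RNA of both was labelled with Cy3 or Cy5 and hybridised to a muscle array built for human genes, so gene names here are those of human probes bound by mouse RNA. On replicate A the control carried Cy3 and the clone Cy5, and on replicate B the dyes were crossed. Each array had 5376 spots. Averaging duplicate spots and then the probes of a gene gave 2466 features, 1521 of them named genes and 945 unnamed probes.

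MyoD is a basic helix-loop-helix transcription factor that commits cells to the skeletal muscle lineage. It binds E-boxes, short DNA elements, together with E proteins, and acts before and with myogenin and MEF2 factors while myoblasts leave the cell cycle, fuse into myotubes and build sarcomeres. The late phase of this programme brings contractile proteins, the sarcoplasmic reticulum that stores calcium, and enzymes of glycolysis and of the mitochondrial respiratory chain.

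Values are scores per spot whose scale and direction are not stated by the sources, so no fold changes are given. A score above 0 is read as more RNA in the clone than in the control. That reading is likely rather than certain and rests on the labels, where the clone is named Test and the control Reference. Each array was centred on its median, and features had an SD of 1.22 units on replicate A and 1.28 on replicate B. The labels do not say whether both dye-swapped arrays used the same RNA extracts. Both arrays were counted as 1 replicate, so day 6 alone has no test over replicates. A feature was counted as lower or higher when both arrays placed it 2 units or more from 0 on the same side. No signal over background is known for the spots, and having only 2 arrays limits how precise any score is.

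By that count 20 genes stood apart on day 6, 15 lower and 5 higher in the clone. For 13 of them RefSeq (GRCm38.p6) gave a window of a matched mouse gene with 250 bases before the transcript start and 50 after it. Among them CES1, ATP5MG and ATP5MC2 were matched only through older names, to Ces1g, Atp5l and Atp5g2. Of these 13 windows, 10 held the E-box CANNTG, which occurred in 72.3% of all 32851 windows of that length. The form CAGCTG, which is among the sequences counted as CANNTG, was in 1 of the 13 and in 16.3% of all. Both motifs read the same on either strand. Printed below are S100a6, whose probe was the lowest gene of day 6, at chr3:90612644-90612943 on the plus strand; Prmt1, with 4 E-boxes the most among the 13, at chr7:44986371-44986670 on the minus strand; Shisal2a, whose probe was the highest of the 5 higher genes and whose window held CAGCTG, at chr4:108383606-108383905 on the minus strand; and Ankrd2, a gene of the series title, at chr19:42035777-42036076 on the plus strand. Sequences run 5′ to 3′ on the gene's strand, and capitals mark CANNTG.
S100a6: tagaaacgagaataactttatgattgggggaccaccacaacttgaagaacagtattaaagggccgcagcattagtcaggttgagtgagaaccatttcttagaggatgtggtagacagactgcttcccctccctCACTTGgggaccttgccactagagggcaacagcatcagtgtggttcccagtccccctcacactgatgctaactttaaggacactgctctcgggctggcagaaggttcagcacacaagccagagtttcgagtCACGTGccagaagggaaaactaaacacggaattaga
Prmt1: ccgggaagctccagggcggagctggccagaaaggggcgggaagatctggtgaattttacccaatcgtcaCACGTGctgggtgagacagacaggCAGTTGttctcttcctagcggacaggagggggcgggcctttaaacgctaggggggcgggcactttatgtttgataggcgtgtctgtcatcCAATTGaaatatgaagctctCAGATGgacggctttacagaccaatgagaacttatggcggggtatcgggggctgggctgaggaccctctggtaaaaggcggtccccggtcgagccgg
Shisal2a: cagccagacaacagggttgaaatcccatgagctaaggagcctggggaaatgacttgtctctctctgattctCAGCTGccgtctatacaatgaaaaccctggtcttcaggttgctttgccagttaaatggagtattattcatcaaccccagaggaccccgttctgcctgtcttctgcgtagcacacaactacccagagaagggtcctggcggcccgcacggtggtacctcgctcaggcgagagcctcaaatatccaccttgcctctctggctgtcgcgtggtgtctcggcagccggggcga
Ankrd2: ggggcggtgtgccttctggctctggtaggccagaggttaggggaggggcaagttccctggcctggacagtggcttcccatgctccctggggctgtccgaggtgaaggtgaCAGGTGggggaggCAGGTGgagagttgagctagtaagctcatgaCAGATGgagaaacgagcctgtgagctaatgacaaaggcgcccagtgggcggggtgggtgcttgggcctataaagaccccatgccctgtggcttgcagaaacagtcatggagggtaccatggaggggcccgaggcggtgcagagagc
S100a6 held 2 such elements, Shisal2a 1 and Ankrd2 3, and a match is a description of the letters and not of binding.

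The arrays of day 6 agreed weakly over all features. Across the 2466 features they correlated at 0.206 (Pearson) and 0.191 (Spearman), a description over features that share arrays and probe positions. Both scores lay above 0 for 696 features (28.2%) and below 0 for 696 (28.2%). At least 1 unit on both arrays was reached by 132 features on the higher side (5.35%) and 136 on the lower side (5.52%). At least 2 units on both was reached by 17 higher features (0.689%) and 28 lower ones (1.14%). Of the lower features 53.6% were genes and of the higher ones 29.4%, against 61.7% of all features. Another 10 features, 7 of them genes, lay at least 2 units from 0 with opposite signs; among these the ribosomal protein gene RPL19 stood at -3.03 on replicate A and 6.30 on replicate B. Duplicate spots correlated at 0.308 on replicate A and 0.602 on replicate B.

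**Figure D1:**
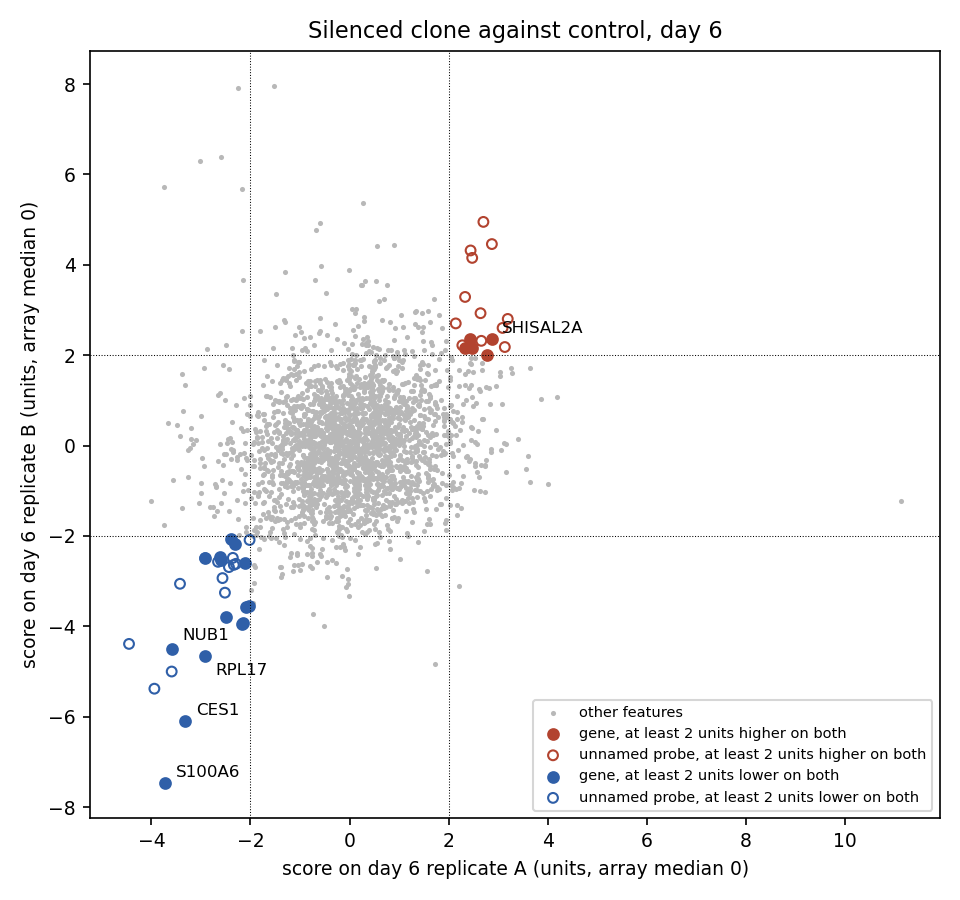
Score of every feature on day 6 replicate A (x axis) against replicate B (y axis), in units with each array's median at 0; dotted lines mark 2 units, filled points are genes and open points unnamed probes past them on both arrays. The 28 lower features reach further from 0 than the 17 higher ones, with S100A6 at -3.72 and -7.47.

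The gene that was silenced and the genes of the series title came first. MYOD1 (Entrez Gene 4654) scored 0.50 on replicate A and 0.26 on replicate B, with 4 of its 4 spot values above 0. The score is no check of the silencing, because the antisense construct carries MyoD sequence and the sources do not say which strand the probe detects. CDKN1C (Entrez Gene 1028), the cell cycle inhibitor p57, scored 1.76 and -0.54, and ANKRD2 (Entrez Gene 26287), a stress-responsive ankyrin repeat protein of the sarcomere, scored 1.02 and 0.06. Neither stood apart from 0 on both arrays. S100A6 (Entrez Gene 6277), or calcyclin, a small EF-hand protein that binds calcium, scored -3.72 and -7.47, with a mean of -5.59, the lowest of all features. In a limma fit of all 6 arrays, which takes its error solely from how dye-swapped arrays differ, it was lower on day 6 with an adjusted p = 0.00623. On replicate A alone it stood at -3.72, which is 1 array's value. S100A6 was already below 0 earlier: day 1 gave -1.98 and -2.26, and day 3 gave -5.72 and -7.04.

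Against that spread limma called 7 features on day 6, all lower (0.284%), and 0 higher (0%); 273 had an unadjusted p under 0.05. The 4 genes among them were S100A6, NUB1, CES1 and RPL17. CES1 (Entrez Gene 1066), a carboxylesterase that cleaves esters and drugs, scored -3.32 on replicate A and -6.10 on replicate B. Its mean of -4.71 had limma's adjusted p = 0.0401. NUB1 (Entrez Gene 51667), which lowers the ubiquitin-like modifier NEDD8, scored -3.58 and -4.50, with a mean of -4.04 and an adjusted p = 0.0154 in limma. RPL17 (Entrez Gene 6139), a protein of the large ribosomal subunit, scored -2.92 and -4.66, with a mean of -3.79 and an adjusted p = 0.0401 in limma. All 4 spot values of each of these 4 genes lay below 0. With dye orientation added as a replicate block, limma called 1 feature, S100A6, with an adjusted p = 0.0406, and NUB1 (0.0574), RPL17 (0.0754) and CES1 (0.184) did not pass. The calls also rested on single arrays: limma called 0 features without either day 1 array and 4 without either day 3 array, S100A6 being the only gene among the 4. Without day 6 replicate A it called 20, the 4 genes included, and without replicate B it called 1, an unnamed probe.

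The other 11 genes of the lower group missed limma's threshold (adjusted p from 0.111 to 0.181), so their scores are given as measured. Genes of chromatin and of protein methylation were among them. HMGN4 (Entrez Gene 10473), a nucleosome-binding protein, scored -2.50 and -3.79; its symbol matched the mouse annotation only as an older name of the pseudogene Hmgn2-ps1, so the mouse RNA bound by this probe is not known. H2AZ1 (Entrez Gene 3015), a histone H2A variant, scored -2.93 and -2.48, nearly alike on both arrays. PRMT1 (Entrez Gene 3276), the main enzyme for asymmetric arginine methylation, scored -2.32 and -2.18.

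Mitochondrial and translation genes made up another share of the 11. ATP5MG (Entrez Gene 10632), a subunit of the membrane part of ATP synthase, scored -2.09 and -3.57. COX8A (Entrez Gene 1351), a small subunit of cytochrome c oxidase, scored -2.03 and -3.54. FAM210B (Entrez Gene 116151), a mitochondrial protein, scored -2.16 and -3.92. These 3 genes lay about as far below 0 as each other on each array, and further on replicate B than on replicate A. EEF1B2 (Entrez Gene 1933), the nucleotide exchange subunit of elongation factor 1, scored -2.17 and -3.95 in the same manner.

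The remaining lower genes encode proteins of other kinds, each with like scores on both arrays. PRDX6 (Entrez Gene 9588), a peroxiredoxin that removes peroxides, scored -2.59 and -2.54. GSDMC (Entrez Gene 56169), a gasdermin, scored -2.62 and -2.46, and SZRD1 (Entrez Gene 26099) scored -2.12 and -2.59. TCAP (Entrez Gene 8557), the titin cap protein of the Z-disc, scored -2.39 and -2.06. It differed from the rest in its spots, since 1 of its 4 spot values lay above 0. Its replicate A score averaged spots at 0.70 and -5.53. In all, 14 of the 15 lower genes had all spot values below 0. Like signs of the spots follow in part from the threshold that chose these genes.

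**Figure D2:**
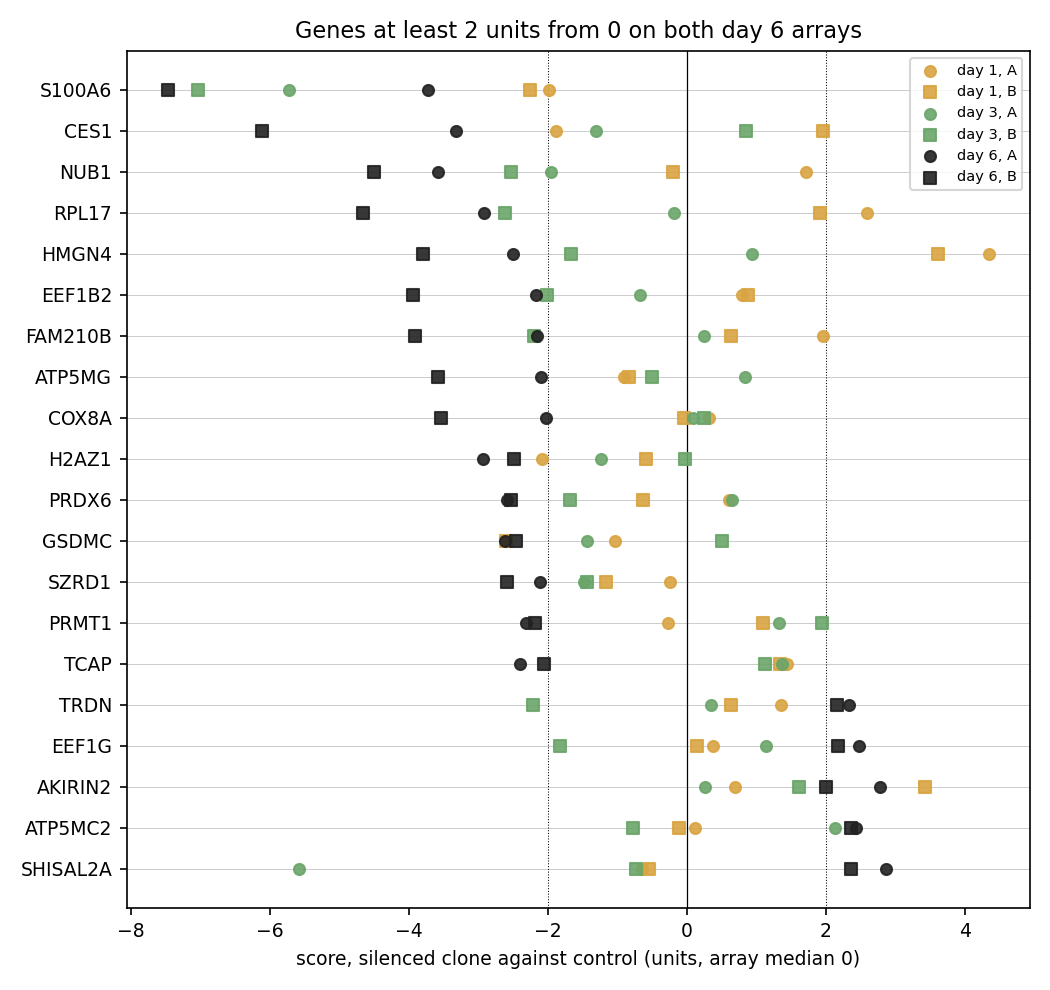
Scores of the 20 genes at least 2 units from 0 on both day 6 arrays, 1 row per gene, on all 6 arrays (x axis, units, array median 0; colour for the day, circle for replicate A, square for replicate B). S100A6 is also far below 0 on day 3, whereas HMGN4 stands at 4.34 and 3.61 on day 1 and below -2 on both day 6 arrays.

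Just short of the threshold on the lower side were DUSP26, a dual-specificity phosphatase, at -1.98 and -3.20, and the secreted cytokine MIF, with -1.94 as its smaller score. Next came RPS10 at -1.93 and -3.04, the actin-sequestering thymosin TMSB10 at -1.93 and -2.64, and the focal adhesion protein ZYX at -1.91 and -2.70. Just inside it were COX8A, with -2.03 as its smaller score, and TCAP, with -2.06. The last genes inside and the first outside thus differed by less than 0.1 units, far less than the SD of either array.

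On the higher side the 5 genes were smaller in size, and none passed limma's test (adjusted p from 0.215 to 0.246). SHISAL2A (Entrez Gene 348378), a small membrane protein, scored 2.87 on replicate A and 2.36 on replicate B. AKIRIN2 (Entrez Gene 55122), a nuclear factor that brings the proteasome into the nucleus, scored 2.77 and 2.00. TRDN (Entrez Gene 10345), triadin, which anchors the calcium release complex in the sarcoplasmic reticulum, scored 2.34 and 2.15. These 3 genes had 4 of 4 spot values above 0.

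The remaining higher genes rested on duplicate spots that disagreed. ATP5MC2 (Entrez Gene 517), a c-ring subunit of ATP synthase, scored 2.43 and 2.37, yet 2 of its 4 spot values lay above 0. Its odd and even spots on replicate B stood at 7.06 and -2.31. EEF1G (Entrez Gene 1937), a subunit of elongation factor 1, scored 2.47 and 2.17 with 3 of 4 above 0, and its spots on replicate B stood at 7.13 and -2.78. From the even spots alone the day 6 means were -1.18 for ATP5MC2 and -1.08 for EEF1G, opposite in sign to those reported. EEF1B2 and EEF1G, subunits of the same elongation factor complex, were thus scored on opposite sides of 0, but the EEF1G score depended on 1 spot of each pair.

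**Figure D3:**
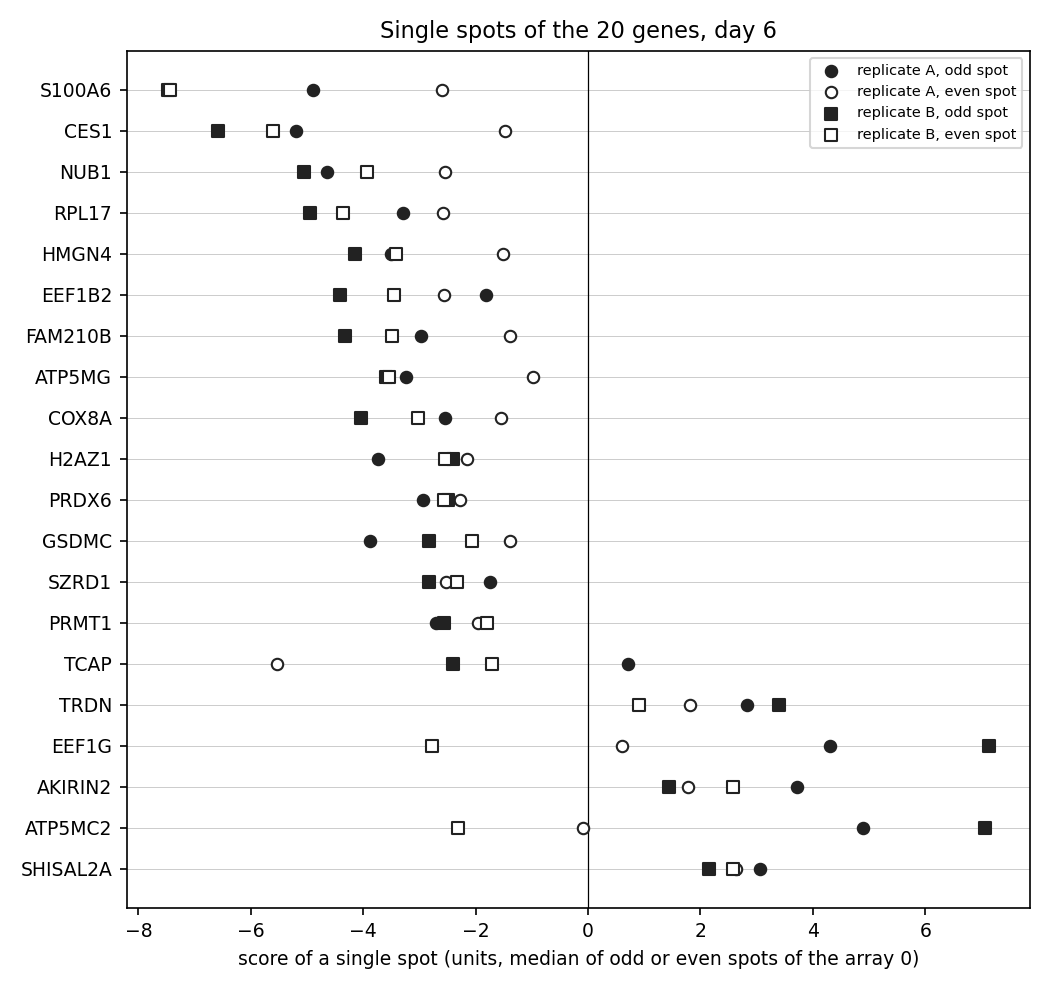
Single-spot scores on day 6 for the 20 genes (x axis, units, with the median of the odd or of the even spots of each array at 0; filled for odd and open for even spots, circles for replicate A, squares for replicate B). Spots of S100A6, NUB1 and RPL17 all lie below 0, while the replicate B spots of EEF1G and ATP5MC2 lie on opposite sides of 0.

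Just outside the threshold on the higher side were genes with the next smaller scores. ZDHHC4, a palmitoyltransferase, scored 2.45 and 1.94, the ADP/ATP carrier SLC25A4 2.55 and 1.93, and the ribosomal protein RPS25 1.92 and 2.11. CTDNEP1, a phosphatase of the nuclear envelope, scored 2.07 and 1.90, and NDUFB9, a complex I subunit, 1.87 and 2.61. Higher means than most of these were reached where 1 array carried more of the score. SAMM50, which inserts proteins into the outer mitochondrial membrane, had the highest mean of genes at least 1 unit higher on both arrays, 2.67, from 3.64 and 1.71. BET1L, a Golgi SNARE protein, averaged 2.64, from 4.20 and 1.08, MDH2, mitochondrial malate dehydrogenase, 2.48, from 1.70 and 3.25, and SUGT1, a co-chaperone, 2.44, from 3.86 and 1.02. MGST3, a microsomal glutathione transferase, averaged 2.44 with only 2 of 4 spot values above 0.

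Genes with several probes allowed a comparison within the arrays, since each probe is a separate spot pair. Where the probes are close in spot order, their agreement does not separate the gene from the position. Of 144 such genes, 16 had all probes above 0 on both day 6 arrays (11.1%) and 14 had all probes below 0 (9.72%). Probes of 1 gene share its RNA and are not replicates, and the sources do not say which stretch of the gene each covers. The clearest was TNNI2, the fast-muscle troponin I that holds the thin filament off in the absence of calcium. Its 6 probes all lay above 0 on both arrays, with 23 of 24 spot values above 0, probe means from 0.73 to 2.00 and a mean of 1.57 ± 0.44 (SD over 6 probes). OAZ1, which inhibits polyamine synthesis, had 8 of 8 spot values above 0 and averaged 2.35. So did KLHL41, a muscle kelch protein of the sarcomere, at 2.17, UQCRC1, a core subunit of respiratory complex III, at 2.13, PGAM2, the muscle phosphoglycerate mutase, at 1.84, and the glycolytic enzyme TPI1 at 1.48. On the lower side DUSP26 averaged -2.59 and the ribosomal stalk protein RPLP1 -2.05, each with 0 of 8 spot values above 0, and FHL3, a LIM protein of muscle, averaged -1.18 in the same way. The probes of DUSP26, at 897 and 899, were close in spot order. Those of RPLP1 (64 and 1256) and FHL3 (103 and 200) lay further apart. None of these genes passed limma's test on day 6.

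Other genes had probes that contradicted each other. In 29 of the 144, 1 probe or more lay above 0 on both arrays while another lay below 0 on both. The widest gap between probe means, named after its values were seen, was that of LDB3, a PDZ and LIM domain protein of the Z-disc. Its probes stood at -4.77 and -5.47 and at 3.17 and 3.21, so that its gene mean of -0.96 describes neither probe. Also among the 29, RPS12 had probe means of 0.92 and -2.82. TMOD4, which caps thin filaments, had probe means of -2.16 and 0.86, and its gene scores were -0.53 on replicate A and -0.77 on replicate B. Probe means also differed in sign without holding it on both arrays. IMPDH2, an enzyme of guanine nucleotide synthesis, likewise named after its values were seen, had -3.85 and 0.34, MYL2 had -0.98 and 0.31, and the 4 probes of MYBPC1 ranged from -1.20 to 0.16.

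In all 7 genes had at least 5 probes, and they are given here whatever their scores. TNNT1, the slow troponin T, had 9 probes, of which 8 lay above 0 on both arrays and 0 below, with a mean of 1.26 ± 0.76 (SD over 9 probes). TNNT3, the fast troponin T, had 7 probes, 5 above 0 on both arrays and 0 below, with a mean of 1.17 ± 0.84. TPM2, beta-tropomyosin, had 10 probes, 5 above and 1 below, with a mean of 0.54 ± 0.79. CKM, the muscle creatine kinase, had 11 probes, 6 above and 4 below, with probe means from -1.94 to 2.82. MYH7, slow myosin heavy chain, had 5 probes with 1 above and 2 below, and MYL3, a slow myosin light chain, had 7 with 3 above and 2 below. The 3 troponin genes thus leaned to the higher side over their probes, while CKM, MYH7 and MYL3 had probes on both sides. In MYL3 1 probe stood at -2.69 and the others between -0.52 and 0.53.

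**Figure D4:**
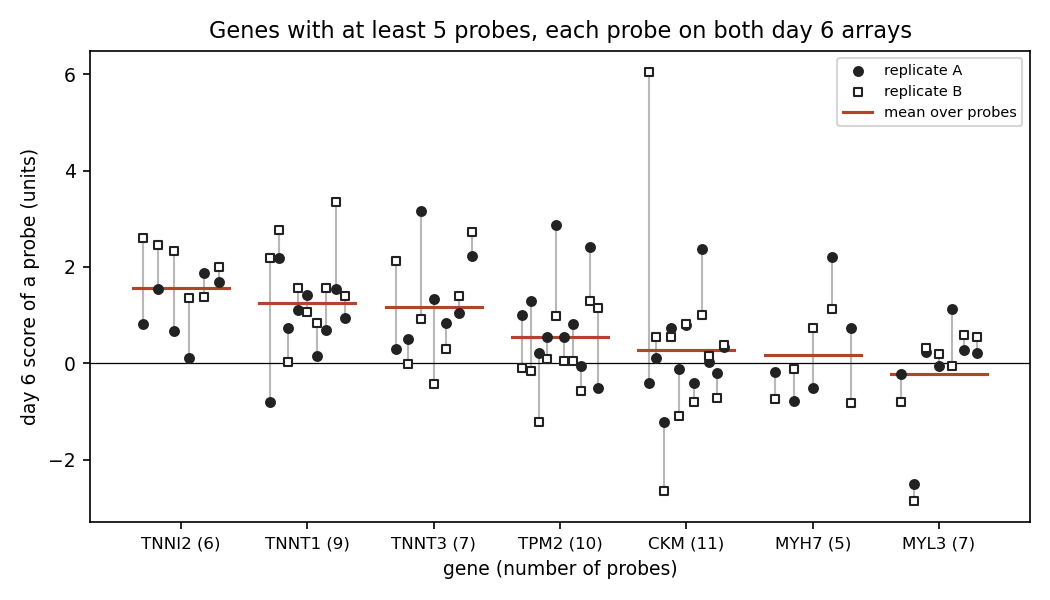
Day 6 score of each probe (y axis, units) for the 7 genes with at least 5 probes (x axis, number of probes in brackets); circles are replicate A, squares replicate B, grey lines join both scores of a probe and red bars are means over probes. All TNNI2 probes lie above 0 on both arrays, whereas the CKM probes range from -1.94 to 2.82 in their means.

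Gene lists are described by their counts, to be read against all features, of which 28.2% lay above 0 on both arrays, 28.2% below, 5.35% at least 1 unit higher and 5.52% at least 1 unit lower. No list was tested. Of the 66 list members at least 1 unit from 0 on both arrays, 18 had spot values on both sides of 0. Within the sarcomere, thin filament genes lay mostly above 0 and thick filament genes on both sides. Of 14 thin filament genes measured, 9 (64.3%) were above 0 on both arrays and 1 (7.14%) below, with a median day 6 mean of 0.55 against 0.00 over all features. At least 1 unit higher on both arrays were TNNI2 and TNNT3, the latter with 24 of 28 spot values above 0, and 0 were 1 unit lower. Nebulin (NEB), the thin filament ruler, scored 1.38 and 0.89. The largest mean, that of skeletal actin ACTA1 at 1.70, came from opposite scores of -0.58 and 3.97. Of 11 thick filament genes 3 (27.3%) were above 0 on both arrays and 4 (36.4%) below, with a median of 0.17 and none 1 unit from 0 on both. MYBPC1, a myosin-binding protein, scored -0.45 and -0.51, MYL2, a slow regulatory light chain, -0.28 and -0.39, the kinase MYLK2 0.45 and 0.20, and MYOM2, an M-band protein, 1.48 and 0.51. In these whole-culture RNAs, fewer cells of a type and less RNA per cell cannot be told apart.

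Of 21 genes of the Z-disc and M-band, 8 (38.1%) were above 0 on both arrays and 4 (19.0%) below, with a median of 0.33. ACTN3, the fast-fibre alpha-actinin, scored 1.49 and 1.81, and PDLIM7, a PDZ and LIM domain protein, 1.21 and 1.05. TCAP was the lowest of the list, followed by FHL3 at -0.94 and -1.42. DES, desmin, averaged 1.57 but scored 0.14 and 3.01. Of 12 genes of calcium handling and excitation-contraction coupling, 4 (33.3%) were above 0 on both arrays and 2 (16.7%) below, with a median of 0.21. Besides TRDN, sarcolipin (SLN), which inhibits the calcium pump, was at least 1 unit higher, at 1.67 and 2.22, with 2 of 4 spot values above 0. The lowest were the calcium channel subunit CACNG1 at -0.80 and -0.19 and the junctional protein JSRP1 at -0.29 and -0.04. The release channel RYR1 scored 0.61 and -0.08 and calsequestrin CASQ1 -1.27 and 1.44, with opposite signs on the arrays.

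Among energy genes, respiratory chain subunits leaned to the higher side, with exceptions. Of 47 subunits of complexes I to IV, 26 (55.3%) were above 0 on both arrays and 10 (21.3%) below, with a median of 0.76. At least 1 unit on both arrays was reached by 9 subunits (19.1%) on the higher side and 4 (8.51%) on the lower. The higher ones included NDUFB9 at 1.87 and 2.61, UQCRC1 at 1.32 and 2.95, UQCRH at 1.47 and 2.52, UQCR11 at 1.85 and 2.04, and NDUFV2 at 1.04 and 2.88. The lower ones were COX8A, the complex III subunits UQCRQ at -1.30 and -2.01 and UQCRB at -1.26 and -1.81, and the complex I subunit NDUFA2 at -1.56 and -1.58. Subunits of the same complex therefore lay on both sides, since UQCRC1 and UQCRQ both belong to complex III. Spot values lay on both sides of 0 for NDUFB9 (7 of 8 above), UQCR11 (2 of 4 above) and UQCRQ (1 of 4 above). The same held for NDUFB11 (9 of 12 above), NDUFV1 (6 of 8 above) and NDUFS1 (3 of 4 above), also at least 1 unit higher. The list median was 0.29 on replicate A and 0.78 on replicate B.

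ATP synthase showed the same spread. Of 14 genes, 7 were above 0 on both arrays and 5 (35.7%) below, with a median of 0.44. ATP5MG and ATP5MF (-1.02 and -1.33), both of the membrane part, were at least 1 unit lower, and ATP5MC2, ATP5MC3 (1.34 and 2.99), both c-ring subunits, and ATP5F1E (2.68 and 1.84) of the F1 part were at least 1 unit higher. ATP5F1E, like ATP5MC2, had 2 of 4 spot values above 0. In the tricarboxylic acid cycle and its shuttles, 4 of 7 genes were above 0 on both arrays and 2 below, with a median of 0.63, and MDH2 and OGDH (1.07 and 1.36) were at least 1 unit higher. The lowest were SUCLG1 at -0.75 and -0.18 and IDH2 at -0.36 and -0.30.

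Of 12 genes of glycolysis and glycogen, 6 were above 0 on both arrays and 2 (16.7%) below, with a median of 0.46. PGAM2 scored 2.33 and 1.35, TPI1 1.64 and 1.32 and GAPDH 1.06 and 1.03, all at least 1 unit higher, GAPDH with 12 of 16 spot values above 0. PGK1, the kinase between GAPDH and PGAM2 in the pathway, scored -1.35 and -1.85, and GYG1, which primes glycogen, -1.17 and -0.56. Of 7 genes of creatine and adenylate metabolism 1 was above 0 on both arrays and 3 below. The mitochondrial creatine kinase CKMT2 scored -1.39 and -2.90 and adenylate kinase AK1 -2.60 and -1.27, the only members 1 unit from 0 on both arrays. The AK1 score on replicate A averaged spots at 0.11 and -5.35, so it rested on 1 spot. Of 16 genes of fatty acid and ester metabolism 2 (12.5%) were above and 4 (25%) below, with CES1 and the electron transfer flavoprotein ETFB (-2.75 and -1.37) at least 1 unit lower and a median of -0.03. ETFB likewise averaged spots at 0.24 and -5.78 on replicate A. Above 0 were SCD at 1.01 and 0.58 and HADHA at 0.02 and 0.67. Myoglobin (MB), the oxygen store of muscle, scored -4.01 and -1.22, and 1 of its 4 spot values lay above 0. Its replicate A score averaged spots at 0.33 and -8.39.

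Of 33 genes of the large ribosomal subunit, 14 (42.4%) were below 0 on both arrays and 4 (12.1%) above, with a median of -0.18. RPL17, RPLP1 (-1.82 and -2.28), RPL35 (-1.38 and -2.69), RPL27 (-1.18 and -2.38) and RPL21 (-1.80 and -1.64) were at least 1 unit lower. RPL22 was at least 1 unit higher, at 1.75 and 1.34, followed by RPL32 at 1.14 and 0.35. Of 21 genes of the small subunit 6 (28.6%) were below and 4 (19.0%) above, a share below 0 close to that of all features, with a median of -0.25. RPS10 was the lowest, before RPS12 at -0.86 and -1.04, and RPS25 the highest, before RPS19 at 0.27 and 2.35. Of 23 translation factors 10 (43.5%) were below 0 on both arrays and 3 (13%) above, with a median of -0.24. EEF1B2 and the initiation factor subunit EIF3E (-1.65 and -1.47) were at least 1 unit lower. EIF5A, the hypusine-bearing factor, scored -0.75 and -3.72, and NACA, which shields new chains, 2.04 and 0.87.

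The lowest list median was that of 5 chromatin and high-mobility-group genes, at -1.91, with 4 members at least 1 unit lower on both arrays. These were HMGN4, H2AZ1, the replacement histone H3-3A (-1.79 and -2.03) and SMARCD3 (-1.58 and -1.02), a muscle subunit of the SWI/SNF remodelling complex. The exception was SET, a histone chaperone, at 0.32 and 0.02. Of 10 S100 proteins and annexins 5 were below 0 on both arrays and 1, S100A12 at 0.96 and 0.26, above. At least 1 unit lower were S100A6, ANXA2 (-2.25 and -1.63) and S100A10 (-1.11 and -1.95), which forms a complex with ANXA2. S100A11 scored -1.39 and -0.83. Of 17 metal and redox genes 9 (52.9%) were below 0 on both arrays and 2 (11.8%) above, the copper chaperone ATOX1 at 0.65 and 2.78 and thioredoxin TXN at 0.49 and 1.86, with a median of -0.69; PRDX6, MB and the lipid peroxidase GPX4 (-1.19 and -1.64) were at least 1 unit lower.

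Of 21 chaperones 8 (38.1%) were above 0 on both arrays and 2 (9.52%) below, with a median of 0.57. SUGT1, STIP1 (2.67 and 1.66), which couples HSP70 to HSP90, and the chaperonin subunit CCT7 (1.06 and 1.36) were at least 1 unit higher. Below 0 were the co-chaperone DNAJB1 at -1.54 and -0.86 and the chaperonin subunit TCP1 at -1.58 and -0.37. Of 18 ubiquitin, NEDD8 and proteasome genes 8 (44.4%) were above and 4 (22.2%) below, with a median of 0.28. NUB1 was the lowest of them. The cullin CUL1 (1.37 and 1.47), a target of NEDD8, was at least 1 unit higher, with 3 of 4 spot values above 0. NEDD8 itself scored 0.20 and -1.20. The proteasome ATPase PSMC3 scored -0.54 and -2.05 and the deubiquitinase USP24 0.69 and 3.25, each leaning on replicate B. Of 13 matrix and secreted factors 2 (15.4%) were above, CTSD at 0.54 and 0.70 and COL4A2 at 0.26 and 0.84, and 4 (30.8%) below, with MIF at least 1 unit lower and IGFBP7 at -1.34 and -0.65. Of 16 cytoskeletal genes 5 (31.2%) were above and 5 (31.2%) below, with TMSB10 and the dynein chain DYNC1I2 (-1.49 and -2.05) at least 1 unit lower and the muscle cofilin CFL2 at 0.48 and 2.19. Of 5 genes listed under cell cycle and cell cycle exit, 1 was above, AKIRIN2, described above through its part in proteasome import. The 2 below were cyclin D3 (CCND3) at -0.22 and -1.86 and E2F4 at -0.09 and -0.92. Of 4 myogenic regulators on the array MYOD1 was above 0 on both arrays and none below; MEF2D scored -2.42 and 0.16 and MYF6 -0.40 and 0.07.

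**Figure D5:**
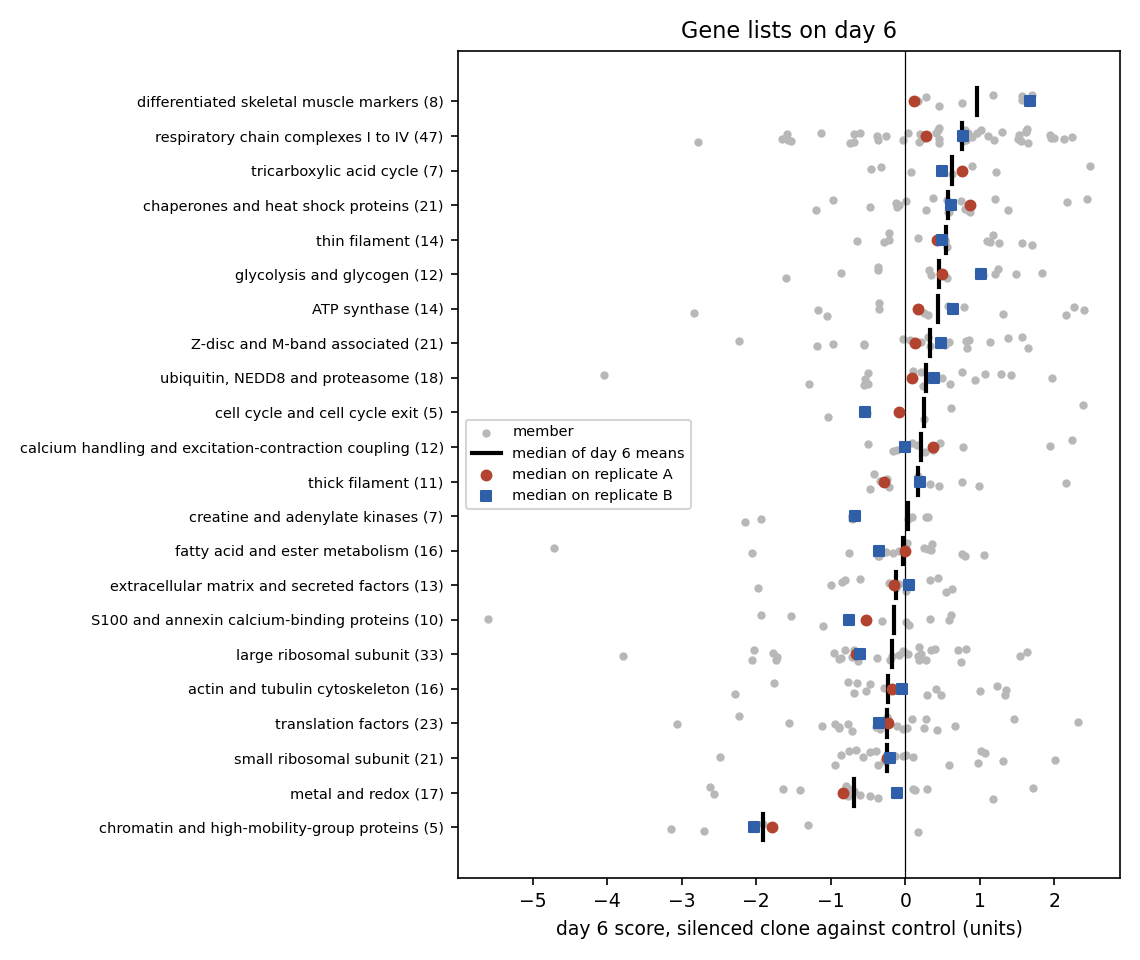
Day 6 scores of gene lists with at least 5 measured genes (number in brackets), with grey points for members (mean of both arrays, x axis in units), black bars for the median of these means, red circles for the median on replicate A and blue squares for the median on replicate B. The chromatin list lies lowest at -1.91, and the respiratory chain list has a median of 0.76 with members on both sides of 0.

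Of 12 listed markers of the labelled cell type, differentiated skeletal muscle, 8 were measured. MYH3, MYH8, MYLPF and MYOG were not. Of the 8, 5 were above 0 on both arrays and 0 below, with a median of 0.97 (0.12 on replicate A and 1.67 on replicate B). Above 0 were TNNI2, TNNT3, TNNC2 at 0.10 and 0.25, DES at 0.14 and 3.01, and CKM, whose probes lay on both sides. ACTA1, MYH1 and MYH2 had opposite signs on the arrays. A score between clone and control gives no level, so presence in either cannot be read from it. Of 2 smooth muscle markers CNN1 scored 1.62 and 1.09 and TAGLN -1.08 and 0.01. Of 3 fibroblast markers FN1 scored -0.10 and -1.51, SPARC -1.52 and 0.30 and VIM -0.45 and 1.42, with a median of -0.61. Of 2 adipocyte markers FABP4 scored -0.90 and -0.62 and SCD 1.01 and 0.58. None of these 3 lists lay on 1 side of 0, and their part in the results above was not tested.

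The scores of the 20 genes on days 1 and 3 were set beside those of day 6. Both day 6 scores lay outside the range of the other 4 arrays for 12 of the 15 lower genes and 4 of the 5 higher ones, which the 2-unit threshold itself favours, so nothing is read from these counts. Over all features both day 6 scores lay below that range for 221 (8.96%) and above it for 231 (9.37%). Of the 15 lower genes, 5 were below 0 on both day 1 arrays and 5 above, and 6 were below 0 on both day 3 arrays and 3 above. Only S100A6 was at least 2 units lower on both day 3 arrays, and only HMGN4 at least 2 units higher on both day 1 arrays. The earlier days share no RNA with day 6 as labelled, but the same clone and control line.

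The difference between day 6 and the mean of days 1 and 3 was tested in the same limma fit, which called 4 features, all lower on day 6 (0.162%), and 0 higher (0%); 216 had an unadjusted p under 0.05. HMGN4 was the only gene. It scored 4.34 and 3.61 on day 1, then 0.94 and -1.67, and -2.50 and -3.79 by day 6. Its difference was -4.95 (limma's adjusted p = 0.0441). With the replicate block 0 features passed in limma, and HMGN4 had an adjusted p = 0.109. HMGN4 also missed the threshold without either day 1 array, without day 3 replicate A and without day 6 replicate B, and passed without the other arrays. TCAP, which had scored 1.44 and 1.33 on day 1 and then 1.36 and 1.12, turned from above to below 0 by day 6 without passing. By size of the difference the named genes also took in PKIG, an inhibitor of protein kinase A, at -0.52 and -3.99 on day 6, and TFDP1, a partner of E2F factors, at 0.25 and 3.54; neither passed.

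Day 6 against day 1 alone, a comparison added after the data were seen, called 9 features in limma, 2 higher on day 6 (0.0811%) and 7 lower (0.284%); 204 had an unadjusted p under 0.05. CDKN1C stood at -6.97 and -8.53 on day 1 and differed by 8.36 (limma's adjusted p = 0.00125), so its low score of day 1 was not seen on day 6. HMGN4 differed by -7.12 (adjusted p = 0.00294 in limma), RPL17, at 2.60 and 1.91 on day 1, by -6.04 (0.0157), and NUB1, at 1.71 and -0.19 on day 1, by -4.80 (0.0411). DYNC1I2, at 4.59 and 2.03 on day 1, differed by -5.08 (0.0411), and BSG, the membrane glycoprotein basigin, by -5.60 (0.0203). With the replicate block 5 features passed in limma, among them CDKN1C (0.0055), HMGN4 (0.0102) and RPL17 (0.0254). Day 6 against day 3 called 1 feature on the lower side (0.0406%) and 0 on the higher (0%) in limma, against 216 at an unadjusted p under 0.05: PPP1R14B, a phosphatase inhibitor, with a difference of -7.38 (adjusted p = 0.0269), and 0 features with the replicate block.

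Several muscle genes lay below 0 on an earlier day and above it on day 6 in their gene means, without passing limma's test. TNNI2 had 5 of 6 probes below 0 on both day 1 arrays and 0 above, against 6 above on day 6; its gene mean went from -1.80 to 1.57 (difference 3.37, limma's adjusted p = 0.258). TNNT3 had 6 of 7 probes below 0 on both day 1 arrays, against 0 on day 6, and its mean went from -0.91 to 1.17 (0.569). TNNT1 had 5 of 9 below 0 on day 1 and 0 on day 6. PGAM2 began at -1.98 and -2.37 on day 1, stood at -0.55 and -0.53 by day 3 and reached 2.33 and 1.35, a difference of 4.01 between days 6 and 1 (adjusted p = 0.0904 in limma). MYH7 had a mean of -0.19 on day 1, had 5 of 5 probes below 0 on both day 3 arrays, with a mean of -3.66, and stood at 0.17 on day 6 (difference 3.83, adjusted p = 0.132 in limma). On day 6 only 1 of the 5 MYH7 probes lay above 0 on both arrays, and 2 lay below. These genes were picked for that pattern after their values were seen, and other muscle genes went the other way. TCAP had means of 1.39 and 1.24 on days 1 and 3 and of -2.23 on day 6, and MB had 0.09 and 1.18 and then -2.61. Both day 6 means leaned on 1 spot of replicate A, at -5.53 for TCAP and -8.39 for MB. The other spot of that array stood at 0.70 for TCAP and 0.33 for MB. TCAP and MB held probes 5 and 49, early in spot order. Even spots on replicate A were also very low for AK1 (probe 29, -5.35) and MYBPC1 (probe 51, -7.57). CKM (probe 2, 0.92) and TPI1 (probe 53, 0.17) lacked such a spot, and ETFB had one far away (probe 611, -5.78). The part of position in these spots was not tested.

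Probes without a gene name made up 12 of the 17 higher features and 13 of the 28 lower ones. Of the 12, 6 lay in a run of 11 neighbouring probes (probe numbers 1789 to 1799 in spot order), whose mean was 2.01 on replicate A and 3.15 on replicate B. The run was also high on day 1, at 1.72 and 2.89, and on 1 day 3 array, at 3.28, but stood at -0.03 on the other. Neighbouring position moved with these calls, and its part in them was not tested; without the run 39 features counted. The lower unnamed probes were not in that run. Some named genes counted as lower were also close in spot order. PRMT1 and H2AZ1 held probes 684 and 685, RPL17 held probe 876, and EEF1B2, S100A6 and PRDX6 held probes 896, 900 and 924. Other probes near RPL17, EEF1B2, S100A6 and PRDX6 were also below 0 on both arrays. Among them were PSMC3 at 870, ATP5MF at 873, RPS10 at 874, DUSP26 at 897 and 899 and CKMT2 at 940. The lowest probes of MYL3 (872) and CKM (936) lay there too. Above 0 on both arrays in that stretch were MDH2 at probe 880, KLHL41 at 882, MYOM2 at 894 and CTSD at 931, among others. Some genes above 0 were close in spot order as well. EEF1G, SLN, MGST3, ATP5F1E and ATP5MC2 held probes 124, 148, 150, 154 and 156. On replicate B their odd spots all lay above 0 and their even spots all below 0. COX8A, at probe 145, had its odd and even spots below 0 on both arrays. The part of position in any of these scores was not tested. The 3 unnamed probes that passed limma's test on day 6 stood at -3.94 and -5.38 (probe 169), -3.59 and -5.00 (probe 561) and -3.42 and -3.06 (probe 1134).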

How the data were processed

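RNA of the silenced clone and of control C2C12 was compared at 3 days on 6 arrays of 2 colours, with the dyes crossed between both arrays of a day. Trizol was used to purify RNA and a tyramide kit to label it, per the labels' protocols. The authors deposited a table with 1 score per spot; its filtering, normalisation and scale are not given in the sources used here. Odd spots and the even spots after them were averaged to 2688 probes, named through the platform annotation, averaged per gene and centred on each array's median. Of the 1521 symbols, 1426 matched a mouse RefSeq symbol, 46 an older name and 49 no single gene.

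The genes and lists described were chosen with earlier results of these data known. Named genes are MYOD1 and the title genes; the 15 lowest and 10 highest means among genes at least 1 unit from 0 on both day 6 arrays; every gene at least 2 units from 0 on both; the 5 highest and 5 lowest differences from the other days; per list the 2 highest and 2 lowest members of like sign; and genes whose probes disagreed. Genes outside this rule, such as BSG, PPP1R14B and members past 1 unit, were named after their values were seen. Of the genes the rule names, 1 is not reported here.

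limma 3.58.1 in R 4.3.3 fitted the 6 arrays with the 3 days as coefficients (two-sided, Benjamini-Hochberg, threshold 0.05; statmod 1.5.0 for the robust prior). Its p-values measure only the spread between dye-swapped arrays, which may be technical, and no test over replicates was made within day 6 alone. As an alternative, limma was also fitted to the 2 day 6 arrays only, against the same kind of spread. The letters A and B mark dye orientation, not shared cultures, so the replicate block is a dye term. The fit was tested on simulated data with independent noise and equal shifts on both day 6 arrays. Those shifts were larger than any day 6 mean, so that test does not bear on the scores reported here. Alternatives were values without centring, equal scaling, subtraction of the median of 10 neighbouring probes, separate probes, odd or even spots only, leaving out the first 40 spots, arrays or days, other thresholds and genes only. Chosen after seeing the data were a demand for like sign in all spot values, leaving out 1 run of probes, and day 6 against each other day. Python 3.11.15 and matplotlib 3.10.9 were used.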

Additional observations from a re-analysis of the deposited data

Results flagged for a closer look

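A few genes had a different score on day 6 than on the earlier days by limma's test of the difference, against the spread between dye-swapped arrays. Against day 1, CDKN1C was higher by 8.36 (limma's adjusted p = 0.00125). HMGN4 had a difference of -7.12 from day 1 (adjusted p = 0.00294 in limma) and of -4.95 from the mean of days 1 and 3 (0.0441). RPL17 differed from day 1 by -6.04 (0.0157), DYNC1I2 by -5.08 (0.0411) and NUB1 by -4.80 (0.0411) in limma. With dye orientation as a replicate block, limma's adjusted p against day 1 was 0.0055 for CDKN1C, 0.0102 for HMGN4 and 0.0254 for RPL17, but 0.0854 for NUB1 and 0.134 for DYNC1I2, and for HMGN4 against the mean of days 1 and 3 it was 0.109. Whether both arrays of a day used the same RNA extracts is not stated in the labels.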

How the results depend on the processing

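The 45 features at least 2 units from 0 on both day 6 arrays became 86 with odd spots only, 268 at 1 unit, 113 at 1.5 units and 7 at 3 units, of which 0 were higher, and 236 to 249 with 1 array left out, when 1 score decides. With neighbouring probes subtracted, 10 of the 15 lower and 1 of the 5 higher genes were still 2 units from 0; with equal scaling 11 and 2, with odd spots only 12 and 4, and with even spots only 7 and 1. ATP5MC2 and EEF1G turned to -1.18 and -1.08 with even spots. The 7 features of the day 6 limma fit became 4 with equal scaling, 17 with neighbours subtracted, 13 with separate probes, 23 with odd spots, 0 with even spots, 4 among genes only, 1 with the replicate block, 0 with only the day 6 arrays, 0 without day 1, 4 without day 3, and 0 to 20 with 1 array left out. S100A6 lost its call without either day 1 array. The 4 features of day 6 against the other days became 1 with equal scaling, 25 with neighbours subtracted, 15 with odd spots, 2 with even spots, 0 among genes only, 0 with the replicate block, 14 with a robust prior, 1 without day 1, 9 against day 1 alone, 1 against day 3 alone, and 0 to 22 with 1 array left out. Of the alternatives for single named genes, 854 were counted as moving the mean by less than the spread between arrays and 123 by more. Another 2 were counted as reversed, a count that leaves out other turns of sign. Even spots alone stood at -0.56 and -3.44 for SLN, -0.11 and -2.80 for MGST3, and -0.43 and -2.87 for ATP5F1E. The means of these genes from both spots were above 0. Causes were not tested, beyond smaller sets of genes or arrays in the settings that leave some out.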

Other observations

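The widest disagreement between the day 6 arrays, with at least 2 units of opposite sign on each, was found at 7 genes and 3 unnamed probes. Besides RPL19, these included RPS14, a small ribosomal subunit protein, at -2.87 on replicate A and 2.13 on replicate B, RPL30 at -2.18 and 2.54, the mitochondrial thioesterase ACOT2 at -2.15 and 3.66, and IGFBP5, which binds insulin-like growth factors outside the cell, at -2.49 and 2.23. WDR83OS stood at -2.17 and 5.68, and SNF8, an ESCRT subunit, at 2.21 and -3.12.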
